A study of Homo sapiens with 32 samples.

Results

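The DNA mismatch repair genes described here are MSH6, MSH3, PMS2, PMS1 and MLH3, taken by symbol from the deposited expression table. They are 5 of its 35238 genes. All 5 passed the filter on low values, which left 17011 genes for testing. They were chosen because loss of mismatch repair marks a class of endometrial cancer, and were followed for their level in untreated cells of each line and their change with drug. Other genes of the same system are not analysed here, apart from a list of 21 partner genes given further down.

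The study measured RNA by bulk sequencing in 4 human endometrial cancer cell lines, each under 4 treatments of 24 h, with 2 libraries per group and 32 in all. Ishikawa carries wild-type CTNNB1, which encodes beta-catenin. Ishikawa-S33Y, SNGM and HEC265 are the lines with mutated CTNNB1. The treatments were vehicle (0.1% DMSO), paclitaxel, SM08502, and the combination of both drugs. Paclitaxel is a taxane that stabilises microtubules. SM08502 inhibits the CDC-like kinases, which phosphorylate the SR proteins that guide splicing. Doses were set for each line. Ishikawa received 11 nM paclitaxel and 80 nM SM08502, and Ishikawa-S33Y 6 nM and 85 nM. SNGM received 11.7 nM paclitaxel and 350.7 nM SM08502, and HEC265 5.6 nM and 149 nM. Every treated group is compared with the vehicle libraries of its own line, so the comparisons within a line share those controls. The labels give no mismatch repair status for any line. They describe plating in duplicate, so p values measure the spread between such duplicates. RNA input was 350 ng for Ishikawa and 500 ng for the other lines, so dose and input cannot be told apart from the line.

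Mismatch repair removes replication errors that escape proofreading. A MutS pair of proteins binds the error: the pair that holds MSH6 recognises mispaired bases and short loops, and the pair that holds MSH3 recognises longer loops. A MutL pair then acts: PMS2 carries the endonuclease activity of the main MutL pair, MLH3 forms a pair best known from meiotic recombination and repeat expansion, and PMS1 forms a pair whose role is less clear. In the endometrium, loss of MSH6 or PMS2 staining is among the signs used to assign a tumour to the mismatch repair-deficient class.

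Depth, recovered from the deposited values, was 13.03 to 34.1 M reads in 30 libraries. The exceptions were combination replicate 2 of Ishikawa-S33Y, at 2.99 M, and combination replicate 2 of SNGM, at 1.61 M. No member had fewer than 284 reads in any of the 30 deep libraries, and the lowest count in a shallow one was 27. All 8 epithelial markers looked up (such as EPCAM and KRT8) were above 1 CPM in every library, where CPM is the read count scaled to a common library total (counts per M reads). The summed CPM of 6 leukocyte markers was 0.521 to 5.86. The summed CPM of 6 stromal markers was 3.93 to 1165, led by COL1A1 with a vehicle mean of 1145 CPM in Ishikawa-S33Y and 134 CPM in Ishikawa. A length score served as a sign of library composition: from the average log2(CPM + 1) of 40 long-transcript genes it subtracts the average of 77 ribosomal genes. It was -3.40 to -1.82 in Ishikawa and -2.10 to -0.383 in the other lines. Within Ishikawa, replicates 1 and 2 had scores of -1.82 and -3.40 on paclitaxel, and -2.56 and -3.37 on SM08502. Where the score is used below as a covariate, its slope comes from gaps within replicate pairs, because each group has its own mean. The widest gap is that paclitaxel pair. Differences between lines fitted with the score extend this slope over a gap that cannot be told apart from the line. In bulk samples, fewer cells of a kind and less RNA per cell cannot be told apart.

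RefSeq (assembly GRCh38.p14) lists all 5 genes, though the annotation behind the deposited values may be another. MSH6 lies at chr2:47783145-47810101 on the plus strand, and its 3′ end overlaps 3182 bases of FBXO11, a gene on the other strand. MSH3 lies at chr5:80654652-80876815 on the plus strand. PMS2 lies at chr7:5970925-6009106 on the minus strand, and 165 bases separate it from AIMP2, a scaffold gene of the tRNA synthetase complex read the other way. PMS1 lies at chr2:189784450-189877629 on the plus strand, and 110 bases separate it from ORMDL1, a regulator of sphingolipid synthesis also read the other way. MLH3 lies at chr14:75013775-75051467 on the minus strand, 1775 bases from ACYP1 on the same strand. The strand used in counting is not given in the sources used here, so reads in stretches that a member shares with another gene, such as MSH6 with FBXO11, cannot be assigned with certainty.

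The stretches between PMS2 or PMS1 and its neighbour, and a window of 30 bases at the start of MSH6, are shown because the first hold the start regions of genes whose levels can be set beside the member's, and the last holds a motif of replication genes. All are RefSeq GRCh38.p14 sequence, 5′ to 3′ on the strand of the member, and capitals mark the motif named. Each stretch between genes therefore starts beside the neighbour and ends beside the member.
MSH6 (chr2:47783137-47783166, variant E2F letters): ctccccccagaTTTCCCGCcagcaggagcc
PMS1 to ORMDL1 (chr2:189784340-189784449, CCAAT box): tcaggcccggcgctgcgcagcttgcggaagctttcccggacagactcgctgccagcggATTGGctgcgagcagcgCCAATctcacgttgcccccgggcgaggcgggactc
PMS2 to AIMP2 (chr7:6009107-6009271, CCAAT box and cyclic AMP response element): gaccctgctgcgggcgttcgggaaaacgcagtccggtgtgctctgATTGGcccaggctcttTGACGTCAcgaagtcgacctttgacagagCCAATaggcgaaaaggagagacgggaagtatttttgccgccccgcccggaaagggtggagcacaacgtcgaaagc

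Motifs were searched on both strands of a window from 250 bases before to 50 after the start of each member. The E2F letters TTTNGCGC were found in MSH3 alone of the 5, on both strands within overlapping bases, and in 1.79% of all 35116 RefSeq promoter windows. The letters TTTCCCGC were found in MSH6 alone, and in 1.63% of windows. CCAAT was found in MSH6, PMS2 and PMS1, and in 34.6% of windows. GGGCGG, the GC box, was found in MSH6, PMS2, MSH3 and PMS1, and in 45.0% of windows. TGACGTCA was found in PMS2 alone, and in 1.85% of windows. The MLH3 window held none of these letters. Each match is a description of the sequence only.

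The first comparison asked whether the basal level of each gene differed between the lines. On vehicle, 4 of the 5 genes differed between lines (moderated F test in limma, adjusted p under 0.05), and so did 86.9% of the genes tested, so the count of members is near the background. MSH3 differed most, MSH6, MLH3 and PMS1 less, and PMS2 gave almost the same value in every line. Differences are on the log2(CPM + 1) scale throughout, and adjusted p values are by the Benjamini-Hochberg method over all genes tested.

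MSH3, the loop-binding MutS subunit, was highest in Ishikawa, at 77.5 and 81.2 CPM on vehicle. It stood at 39.5 and 41.2 CPM in Ishikawa-S33Y, at 12.3 and 13.5 CPM in SNGM, and at 12.7 and 13.0 CPM in HEC265. The lines thus form 3 steps that do not overlap, with SNGM and HEC265 together on the lowest. The level in Ishikawa-S33Y was 0.96 log2 units below Ishikawa (SE 0.12, adjusted p = 1.69e-06), a comparison that calls 48.3% of genes. The level in SNGM was 2.53 below Ishikawa (SE 0.12, adjusted p = 5.62e-14), or 5.78-fold lower, and 66.8% of genes are called there. The level in HEC265 was likewise 2.53 below Ishikawa (SE 0.12, adjusted p = 5.53e-14), where 63.3% of genes are called. SNGM and HEC265 did not differ beyond their spread, with an interval of -0.26 to 0.25 and 54.9% of genes called. The range of MSH3 over the 4 line means was 2.53 log2 units, against a median of 1.14 for all genes tested, and 14.9% of genes had a larger one. With the length score as a covariate the differences from Ishikawa were -2.27 in HEC265, -2.22 in SNGM and -0.78 in Ishikawa-S33Y, all still called.

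MSH6, the mispair-binding MutS subunit, ran in nearly the opposite order. It was highest in HEC265, at 82.5 and 87.3 CPM, followed by SNGM at 67.1 and 66.0 CPM, Ishikawa at 56.8 and 51.4 CPM, and Ishikawa-S33Y at 44.4 and 45.6 CPM. No value of one line overlapped another. HEC265 exceeded Ishikawa-S33Y by 0.90 (SE 0.12, adjusted p = 1.72e-06), a comparison that calls 58.0% of genes. SNGM exceeded Ishikawa-S33Y by 0.56 (SE 0.12, adjusted p = 5.48e-04), where 60.8% of genes are called. HEC265 exceeded Ishikawa by 0.64 (adjusted p = 1.12e-04) and SNGM by 0.35 (adjusted p = 0.0219). The difference of 0.30 between SNGM and Ishikawa had an adjusted p of 0.0405, and that of -0.26 between Ishikawa-S33Y and Ishikawa had 0.0893. The SNGM to Ishikawa call was lost without either SNGM library or Ishikawa replicate 2 (adjusted p of 0.0990, 0.119 and 0.215), and the HEC265 to SNGM call without either SNGM library or HEC265 replicate 2 (0.0640, 0.0871 and 0.119). The differences from Ishikawa moved with the length score: with it as a covariate the SNGM difference turned to -0.03 (adjusted p = 0.921) and the HEC265 difference became 0.37 (adjusted p = 0.0895), while that of Ishikawa-S33Y became -0.45 (adjusted p = 0.0205) and was called.

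PMS2, the MutL endonuclease subunit, was at 32.5 and 38.9 CPM in Ishikawa, 34.8 and 34.8 CPM in Ishikawa-S33Y, 37.5 and 34.8 CPM in SNGM, and 35.2 and 35.5 CPM in HEC265. The Ishikawa pair spans every value of the other lines, and the F test gave an adjusted p of 0.990. The range over the 4 line means was 0.05 log2 units, and 99.95% of the genes tested had a larger one. Against Ishikawa, the 95% interval of the difference was -0.33 to 0.28 in Ishikawa-S33Y, -0.28 to 0.33 in SNGM and -0.31 to 0.30 in HEC265. No difference from Ishikawa was called after median re-centring (lowest adjusted p = 0.0986, in HEC265) or quantile normalization (lowest 0.276, in SNGM). With the length score as a covariate, the level was 0.49 lower in Ishikawa-S33Y (adjusted p = 0.00300), 0.77 lower in SNGM (adjusted p = 4.62e-04) and 0.67 lower in HEC265 (adjusted p = 5.86e-04) than in Ishikawa. The slope behind these values comes from gaps within replicate pairs, widest on paclitaxel in Ishikawa. It is extended over a score gap between lines that cannot be told apart from line and RNA input. PMS2 also has near-identical copies elsewhere in the genome. Across libraries, 11 of them (PMS2CL and the PMS2P pseudogenes) summed to 18.3 to 41.5 CPM, which is 52.2% to 134% of the value listed for PMS2, so how reads were split between them bears on every PMS2 value.

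PMS1, a MutL subunit of unclear role, was at 37.7 and 36.2 CPM in Ishikawa, 33.1 and 30.4 CPM in SNGM, 24.2 and 22.5 CPM in HEC265 and 22.9 and 20.9 CPM in Ishikawa-S33Y. The values of HEC265 and Ishikawa-S33Y overlap, and those of the other lines do not. Ishikawa-S33Y was 0.73 below Ishikawa (SE 0.16, adjusted p = 7.23e-04) and HEC265 was 0.64 below it (SE 0.16, adjusted p = 0.00144). SNGM and Ishikawa differed by -0.21 (adjusted p = 0.250), and by 0.45 in the other direction with the length score as a covariate (adjusted p = 0.105). With the length score as a covariate the called differences of Ishikawa-S33Y and HEC265 from Ishikawa shrank to -0.34 (adjusted p = 0.118) and -0.08 (adjusted p = 0.762). After re-centring, that of HEC265 was -0.43 (0.0709). HEC265 was 0.43 below SNGM (adjusted p = 0.0274), and 0.54 below with the covariate (0.00106). This HEC265 to SNGM call was lost after re-centring (0.142), quantile normalization (0.0547) and without any one vehicle library of these lines (0.0523 to 0.137). SNGM exceeded Ishikawa-S33Y by 0.52 on the deposited scale (adjusted p = 0.00793), and by 0.80 with the covariate. That call was lost without Ishikawa-S33Y replicate 2 (adjusted p = 0.0629) or SNGM replicate 1 (0.0597).

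MLH3 was at 78.0 and 76.2 CPM in Ishikawa, 67.4 and 72.4 CPM in Ishikawa-S33Y, 45.0 and 45.1 CPM in HEC265, and 38.4 and 39.4 CPM in SNGM. The Ishikawa pair of lines lay well above the other pair. SNGM was 0.97 below Ishikawa (SE 0.12, adjusted p = 3.32e-07) and HEC265 was 0.76 below it (SE 0.12, adjusted p = 1.04e-05). Ishikawa-S33Y differed from Ishikawa by -0.14 (interval -0.39 to 0.11), and HEC265 from SNGM by 0.21 (interval -0.04 to 0.46), neither of them called. All called differences of MLH3 between lines were also called with the length score as a covariate.

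**Figure D1:**
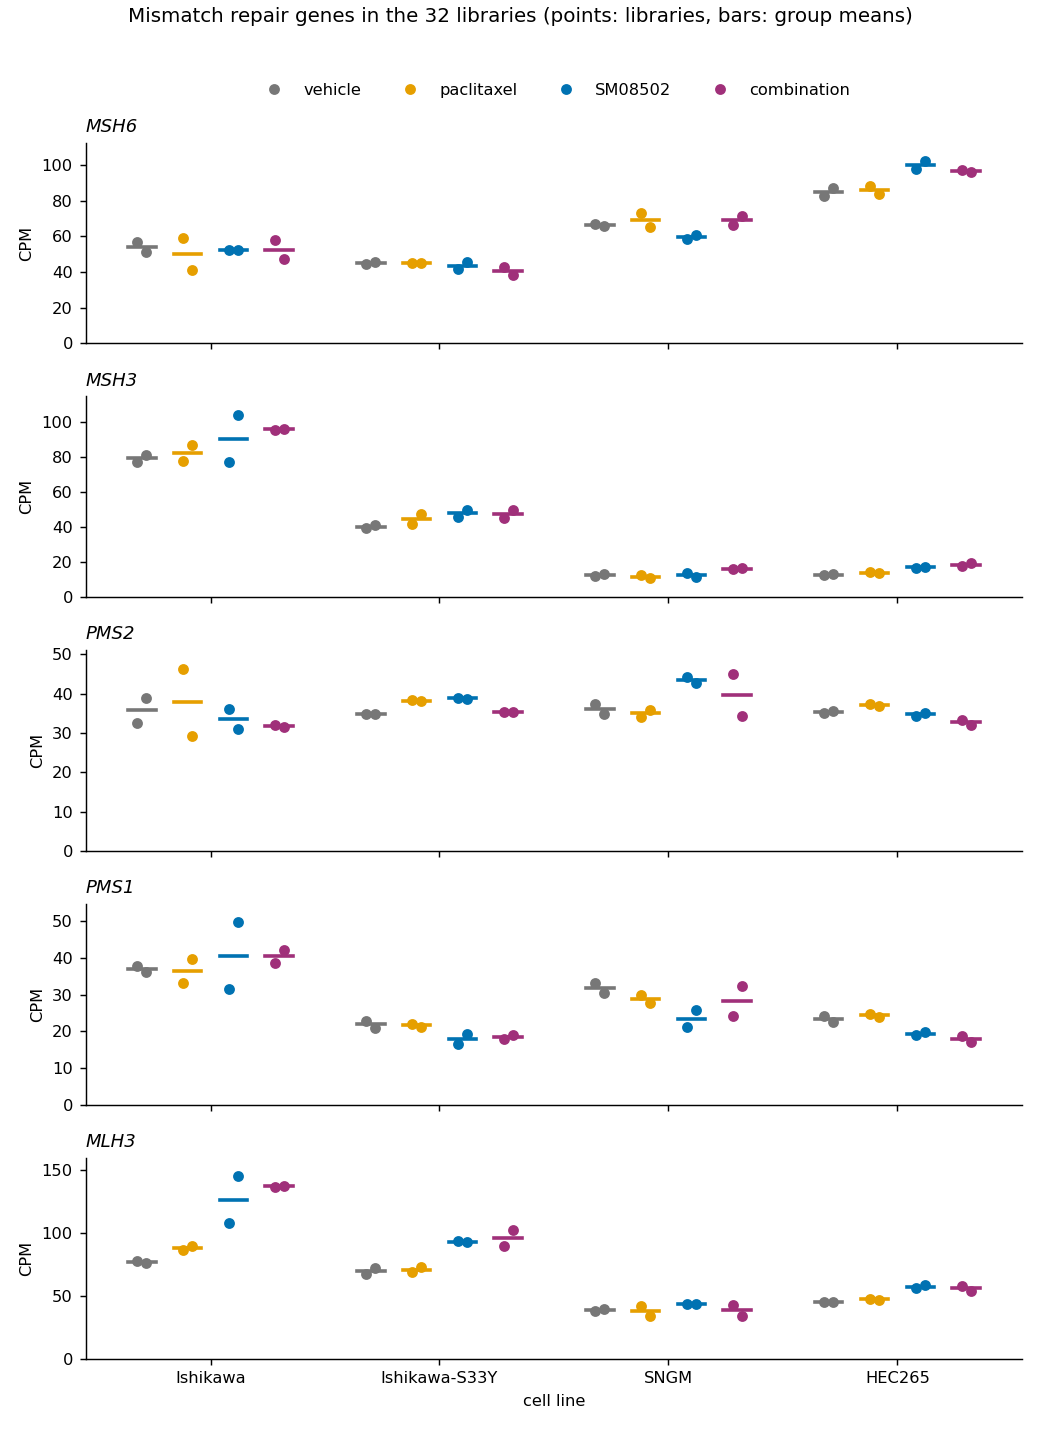
CPM of each mismatch repair gene (vertical axes, from 0) in the 32 libraries, by cell line and treatment; points are libraries and bars are means of 2. MSH3 falls in steps from Ishikawa to Ishikawa-S33Y to SNGM and HEC265, PMS2 is near 35 CPM on vehicle in every line, and the MLH3 values with SM08502, alone or combined, lie above the rest in each line but SNGM.

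On the deposited scale, the genes beside PMS1 and PMS2 ordered the lines differently from those members. ORMDL1, beside PMS1, averaged 100.6 CPM in Ishikawa and 50.0 in Ishikawa-S33Y, against 42.2 in SNGM and 41.2 in HEC265. It was 1.23 below Ishikawa in SNGM (adjusted p = 1.01e-07), where the PMS1 difference of -0.21 was not called and its sign turned with the length score. AIMP2, beside PMS2, was 0.90, 1.27 and 0.34 below Ishikawa in Ishikawa-S33Y, SNGM and HEC265 (adjusted p = 3.25e-05, 1.15e-07 and 0.0492). PMS2 held one level on the deposited scale. With the length score as a covariate PMS2 was 0.49, 0.77 and 0.67 below Ishikawa in these lines (adjusted p = 0.00300, 4.62e-04 and 5.86e-04). The neighbours were not fitted with this covariate, whose slope comes from replicate gaps that are widest in Ishikawa. FBXO11, which overlaps MSH6, was 0.41, 0.58 and 0.65 above Ishikawa in the same lines (adjusted p = 0.0382, 0.00263 and 0.00116). ACYP1, upstream of MLH3, averaged 9.08 CPM in Ishikawa, 6.86 in HEC265, 5.92 in Ishikawa-S33Y and 4.21 in SNGM, and its order of lines was that of MLH3 apart from Ishikawa-S33Y and HEC265. PMS2CL, a copy of PMS2, averaged 19.3 CPM in SNGM, 18.1 in Ishikawa-S33Y, 15.9 in Ishikawa and 13.3 in HEC265.

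**Figure D2:**
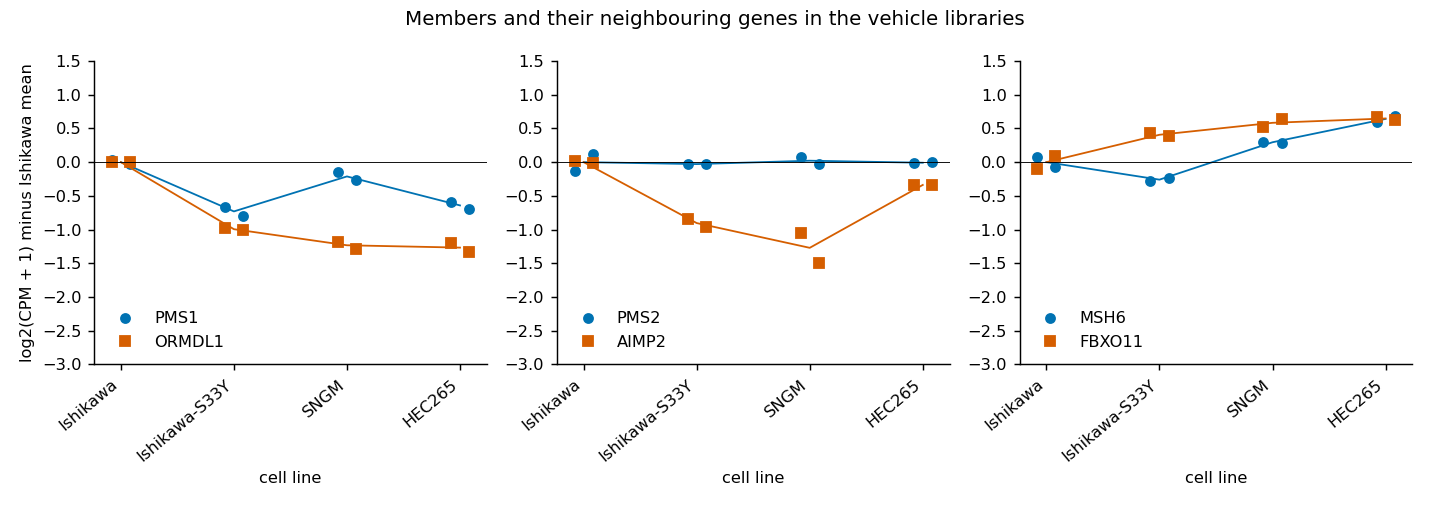
Vehicle libraries only: log2(CPM + 1) of a member (circles) and its neighbour (squares), each minus its own Ishikawa mean, in the 4 lines; lines join the means of 2. ORMDL1 is 1.23 below Ishikawa in SNGM, where PMS1 differs by -0.21 (not called, and of the other sign with the length score as a covariate). The line means of PMS2 stay within 0.05 of each other while AIMP2 is 1.27 below Ishikawa in SNGM. With the covariate, which is not used in the figure, PMS2 is 0.77 below Ishikawa in SNGM.

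The next comparisons asked how each drug moved these genes. For SM08502 averaged over the 4 lines with equal weight, 3 of the 5 members passed the test. MLH3 and MSH3 were higher and PMS1 was lower, while 38.5% of all genes tested were called, 22.6% higher and 15.8% lower. The median over the 5 members was 0.08 and that over all genes tested was 0.05. For the combination, MLH3 and MSH3 passed, both higher, in a comparison that calls 49.1% of genes, 29.0% higher and 20.1% lower. Paclitaxel alone gave no call for any member.

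MLH3 rose by 0.40 with SM08502 over the lines (SE 0.06, interval 0.28 to 0.53, adjusted p = 2.02e-05), a fold of 1.32. In Ishikawa it went from 78.0 and 76.2 CPM on vehicle to 107.8 and 145.3 CPM on SM08502. The replicates on the drug differ widely, yet both exceed every vehicle and paclitaxel value. The difference in Ishikawa was 0.69 (SE 0.12, adjusted p = 5.78e-04), in a comparison that calls 15.2% of genes. It was 0.91 without SM08502 replicate 1 and 0.48 without replicate 2, and the adjusted p was 0.0988 when Ishikawa libraries alone set the spread. In Ishikawa-S33Y it went from 67.4 and 72.4 to 93.6 and 93.0 CPM, a rise of 0.41 (SE 0.12, adjusted p = 0.0132), where 29.1% of genes are called. The adjusted p there was 0.0663 without SM08502 replicate 1, 0.0676 without replicate 2 and 0.104 without vehicle replicate 1. In HEC265 it went from 45.0 and 45.1 to 56.0 and 58.7 CPM, a difference of 0.34 with an adjusted p of 0.0619, where 14.7% of genes are called. It was called when HEC265 libraries alone set the spread (adjusted p = 0.00278), with voom (0.0304) and with the stricter filter (0.0488). In SNGM it went from 38.4 and 39.4 to 43.5 and 43.5 CPM, a difference of 0.16 (interval -0.09 to 0.41, adjusted p = 0.526), where 7.86% of genes are called. The F test for a difference of the SM08502 effect between lines gave an adjusted p of 0.147 for MLH3, and called none of the 5 members and 12.4% of all genes.

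With the combination, MLH3 stood at 137.1 and 137.3 CPM in Ishikawa, a rise of 0.82 over vehicle (SE 0.12, adjusted p = 7.23e-05), where 22.8% of genes are called. From Ishikawa libraries alone that adjusted p was 0.0524. In Ishikawa-S33Y it stood at 90.1 and 102.3 CPM, a rise of 0.45 (SE 0.12, adjusted p = 0.00440), where 42.0% of genes are called. Replicate 2 there is the shallow library, and without it the rise was 0.36 with an adjusted p of 0.0605. In HEC265 it stood at 58.1 and 54.1 CPM, a difference of 0.31 (adjusted p = 0.0772), where 19.5% of genes are called. It was called from HEC265 libraries alone (adjusted p = 0.00307), with voom (0.0427) and without both shallow libraries (0.0399). In SNGM it stood at 42.7 and 34.2 CPM, the lower value from the shallow library, and the difference was -0.02 (interval -0.27 to 0.22), where 18.4% of genes are called. The combination effect on MLH3 differed between the lines (F test, adjusted p = 0.00614), as for 27.1% of all genes; this test was added after the SM08502 values had been seen. The effect was 0.85 smaller in SNGM than in Ishikawa (SE 0.17, adjusted p = 0.00511), in a comparison that calls 7.71% of genes. It was 0.48 smaller in SNGM than in Ishikawa-S33Y (adjusted p = 0.0471, with 22.5% of genes called), and 0.23 smaller with an adjusted p of 0.427 without both shallow libraries. MSH6, MSH3, PMS2 and PMS1 were not called in the F test. The mean over lines was 0.39 (SE 0.06, adjusted p = 1.68e-05).

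MSH3 rose by 0.19 with SM08502 over the lines (SE 0.06, interval 0.07 to 0.32, adjusted p = 0.0161), a fold of 1.14. On SM08502 it stood at 77.1 and 104.4 CPM in Ishikawa, 46.1 and 49.7 CPM in Ishikawa-S33Y, 13.6 and 11.7 CPM in SNGM, and 16.7 and 17.4 CPM in HEC265. Both HEC265 values exceed that line's vehicle values of 12.7 and 13.0 CPM, and the SNGM values straddle theirs. Of single lines, only HEC265 passed the test, at 0.38 (SE 0.12, adjusted p = 0.0378), and leaving out any one of its vehicle or SM08502 libraries put the adjusted p between 0.120 and 0.206. The mean over lines had an adjusted p of 0.0515 without Ishikawa SM08502 replicate 2, 0.0718 after re-centring each library on its median and 0.0799 after quantile normalization. With the combination the mean rise was 0.33 (SE 0.06, adjusted p = 1.26e-04), a fold of 1.26. The combination values were 95.5 and 96.4 CPM in Ishikawa, 45.2 and 49.8 CPM in Ishikawa-S33Y, 15.9 and 16.8 CPM in SNGM and 17.9 and 19.4 CPM in HEC265, and each exceeds both vehicle values of its line. HEC265 alone passed the test by itself, at 0.50 (SE 0.12, adjusted p = 0.00521), and after re-centring that was 0.39 with an adjusted p of 0.0789. Without HEC265 combination replicate 2 the rise was 0.45 with an adjusted p of 0.0710.

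PMS1 fell by 0.22 with SM08502 over the lines (SE 0.08, interval -0.38 to -0.05, adjusted p = 0.0376). It was at 16.6 and 19.2 CPM in Ishikawa-S33Y, 21.2 and 25.8 CPM in SNGM, and 18.9 and 19.7 CPM in HEC265, each below both vehicle values of its line. In Ishikawa the drug values of 31.6 and 49.6 CPM lay on either side of vehicle. No single line passed the test, the differences being 0.10 in Ishikawa, -0.43 in SNGM, -0.28 in Ishikawa-S33Y and -0.26 in HEC265. The call was lost without any 1 of 10 of the 16 libraries, in turn: without Ishikawa SM08502 replicate 1 the mean was -0.14 with an adjusted p of 0.118. It was also lost with no filter (adjusted p = 0.0627), after re-centring (0.0759) and after quantile normalization (0.0588), and was kept with the length score as a covariate (-0.28, adjusted p = 0.00135). With the combination the mean was -0.16 (adjusted p = 0.104), and -0.22 without both shallow libraries. That mean was called with the length score as a covariate (-0.27, adjusted p = 0.00306) and with voom (-0.21, 0.0427). It was not called after re-centring (0.158) or quantile normalization (0.131). In single lines on SM08502, the covariate gave calls in SNGM (-0.47, adjusted p = 0.0130), Ishikawa-S33Y (-0.34, 0.0383) and HEC265 (-0.37, 0.0399), but not in Ishikawa (0.05, 0.812). From HEC265 libraries alone, PMS1 was called with SM08502 (-0.26, adjusted p = 0.0215) and with the combination (-0.36, 0.00567). Voom called it with SM08502 in SNGM (-0.44, 0.0415).

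In the main fit, MSH6 and PMS2 passed the test in no drug comparison. For MSH6 the mean over lines was 0.00 with SM08502 (SE 0.06, interval -0.13 to 0.13) and 0.01 with the combination (interval -0.12 to 0.14). In HEC265 all SM08502-containing libraries, at 96.2 to 102.3 CPM, lay above the others, at 82.5 to 88.2 CPM, but the differences of 0.24 and 0.18 had adjusted p of 0.237 and 0.346. Both were called when HEC265 libraries alone set the spread (adjusted p = 0.00781 and 0.0156). In that setting PMS2 was also called with the combination (-0.11, adjusted p = 0.0319). For PMS2 the mean was 0.08 with SM08502 (interval -0.08 to 0.23) and -0.03 with the combination (interval -0.18 to 0.12). With the length score as a covariate the PMS2 mean with SM08502 became 0.15 (adjusted p = 0.0104). In Ishikawa the PMS2 values on paclitaxel were 46.4 and 29.2 CPM, the widest replicate gap of this gene, in the pair whose length scores also differed.

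**Figure D3:**
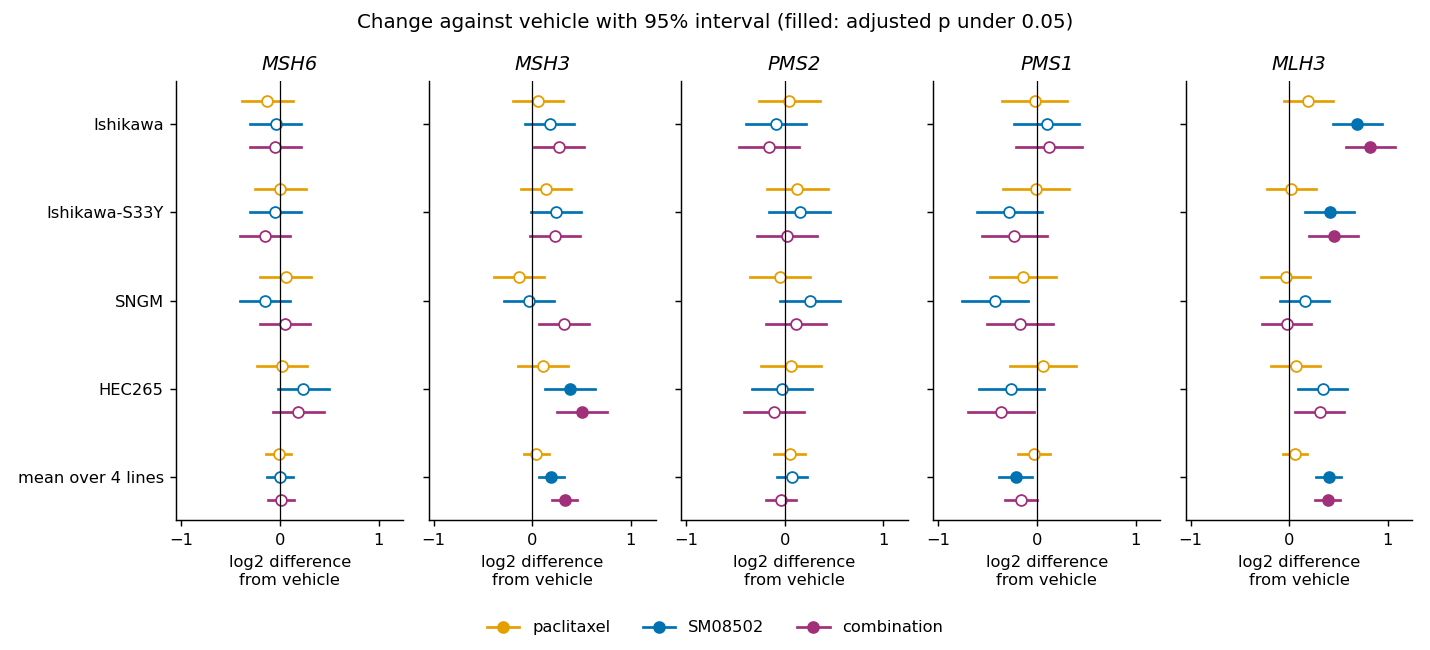
Log2 difference from vehicle (horizontal axis, log2(CPM + 1) scale) of each gene for paclitaxel, SM08502 and the combination, by line and averaged over 4 lines; bars are 95% intervals of the fit and filled points have an adjusted p under 0.05. Filled points are confined to MLH3 in Ishikawa, Ishikawa-S33Y and the mean, MSH3 in HEC265 and the mean, and PMS1 in the SM08502 mean.

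Paclitaxel alone gave mean differences over the lines of -0.01 for MSH6, 0.04 for MSH3, 0.05 for PMS2, -0.03 for PMS1 and 0.06 for MLH3. The limma fit called 0 members and 0.00% of all genes for that mean, with 480 genes and 0 members at an unadjusted p under 0.05, and limma voom on recovered reads also called 0 genes. In single lines paclitaxel called 0 members, against 0.0176% of genes in SNGM, 0.0118% in Ishikawa, 0.00588% in HEC265 and 0.00% in Ishikawa-S33Y. The widest interval for a mean, that of PMS1, was -0.19 to 0.14. Adding paclitaxel to SM08502 moved 0 of the 5 members (combination against SM08502, mean over lines), with 0.0470% of genes called and MSH3 alone at an unadjusted p under 0.05, at 0.14 (interval 0.01 to 0.26, adjusted p = 0.382). The departure of the combination from the sum of both drugs called 0 members and 0.00% of genes, with 0 members and 573 genes at an unadjusted p under 0.05. Against paclitaxel, the combination was higher by 0.33 for MLH3 (adjusted p = 1.39e-04) and by 0.29 for MSH3 (adjusted p = 5.98e-04), in a comparison that calls 44.8% of genes.

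The same pattern can be read library by library. Within each line, 4 libraries received SM08502, alone or with paclitaxel, and 4 did not. The MLH3 values with SM08502 lay wholly above those without in Ishikawa (lowest 107.8 against highest 90.1 CPM), Ishikawa-S33Y (90.1 against 72.9 CPM) and HEC265 (54.1 against 47.8 CPM). In SNGM they overlapped (34.2 to 43.5 against 34.3 to 41.8 CPM). The share of all genes wholly above in this way was 32.3% for Ishikawa-S33Y and 30.4% for HEC265, against 12.0% for Ishikawa and 12.0% for SNGM. MSH3 and MSH6 were wholly above in HEC265 and overlapped elsewhere. PMS1 was wholly below in Ishikawa-S33Y and HEC265, as were 22.4% and 18.4% of all genes there, and overlapped in Ishikawa and SNGM, where the shares wholly below were 8.51% and 10.1%. PMS2 overlapped in all lines.

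Marker genes and the length score moved with the drug in the same 2 lines. The summed CPM of the 8 epithelial markers in Ishikawa-S33Y was 3177 to 3586 without SM08502 and 1496 to 2061 with it, and in HEC265 it was 2973 to 3211 and 2428 to 2712. The 6 stromal markers summed to 1055 to 1165 CPM without and 714 to 898 CPM with it in Ishikawa-S33Y, and to 5.93 to 7.75 and 3.93 to 5.92 CPM in HEC265. The 6 leukocyte markers summed to 2.77 to 3.71 and 4.68 to 5.86 CPM in Ishikawa-S33Y, and to 0.521 to 1.38 and 1.41 to 1.76 CPM in HEC265. In Ishikawa and SNGM all these ranges overlapped. Their part in the changes of MLH3, MSH3 and PMS1 was not tested. The length score was, in HEC265, -1.17 to -0.911 without SM08502 and -1.44 to -1.27 with it, and in Ishikawa-S33Y -1.61 to -1.45 and -2.10 to -1.71. With the score as a covariate the mean change of MLH3 was 0.38 with SM08502 (adjusted p = 1.49e-05) and 0.36 with the combination (adjusted p = 5.09e-05). For MSH3 these were 0.16 (adjusted p = 0.0230) and 0.28 (adjusted p = 5.08e-04), and for PMS1 -0.28 (adjusted p = 0.00135) and -0.27 (adjusted p = 0.00306).

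The neighbouring genes were read for the same treatments. AIMP2 fell by 0.23 with SM08502 (adjusted p = 0.0183) and by 0.31 with the combination (adjusted p = 0.00158), and PMS2 was not called. PMS2CL rose by 0.24 with SM08502 (adjusted p = 0.0143) and by 0.32 with the combination (adjusted p = 0.00151). ORMDL1 rose by 0.19 with the combination (adjusted p = 0.0282), where PMS1 had -0.16. FBXO11 and ACYP1 were not called with either. Over the 16 group means with each line's own mean removed, Pearson's r was -0.31 for PMS1 and ORMDL1, -0.01 for PMS2 and AIMP2, -0.06 for MSH6 and FBXO11 and 0.60 for MLH3 and ACYP1. These 16 means come from 4 lines and share libraries and depth, so r is a description.

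A list of 21 genes that work with these proteins or are related to them was read in the same way. It holds the exonuclease EXO1, the sliding clamp PCNA and its loader RFC1 to RFC5, the single-strand binding subunits RPA1 to RPA3, DNA polymerase delta, the ligase LIG1 and several relatives. With SM08502 over the lines, 6 of the 21 were higher, 3 lower and 12 not called, where 22.6% of all genes are higher and 15.8% lower, and the list median was 0.05 against 0.05 for all genes. With the combination 7 were higher, 4 lower and 10 not called, where 29.0% of all genes are higher and 20.1% lower, and the median was 0.09 against 0.04. Both counts are near the background. LIG1, which seals the repaired strand, fell most: by 0.58 with SM08502 (SE 0.11, adjusted p = 1.85e-04) and by 0.76 with the combination (SE 0.11, adjusted p = 5.39e-06). EXO1, which removes the strand with the error, fell by 0.23 and 0.21 (adjusted p = 0.00405 and 0.00613). RFC2 fell by 0.30 with SM08502 (adjusted p = 0.00543), and POLD2 by 0.23 with the combination (adjusted p = 5.85e-04). RFC4 rose by 0.36 and 0.49 (adjusted p = 2.85e-04 and 5.53e-06), so subunits of one clamp loader moved in opposite directions. MSH4, a meiotic MutS relative, rose by 0.47 and 0.49 (adjusted p = 0.0475 and 0.0300) from a low level of at most 7.75 CPM in any vehicle library. RPA1 rose by 0.20 with SM08502 (adjusted p = 0.0318) and RPA3 by 0.31 with the combination (adjusted p = 0.0205).

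**Figure D4:**
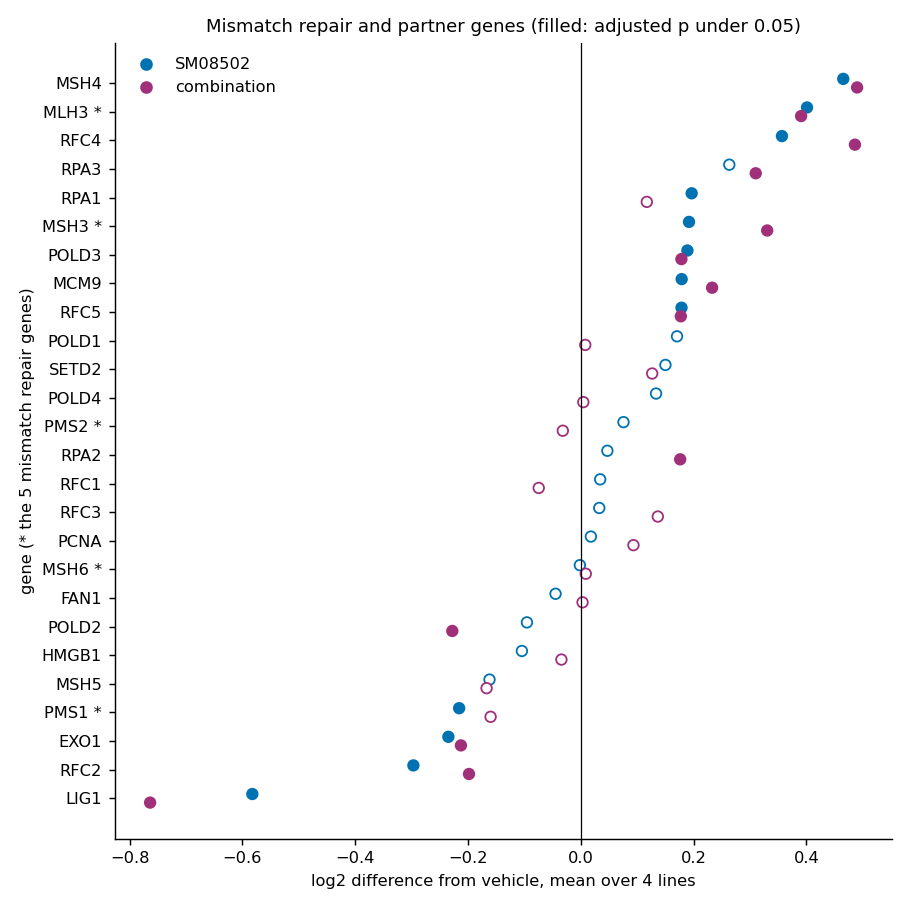
Log2 difference from vehicle, averaged over 4 lines, of the 5 mismatch repair genes (starred) and 21 partner genes, for SM08502 and the combination; filled points have an adjusted p under 0.05. LIG1 is lowest with both treatments, and MLH3 and MSH4 are among the highest.

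Replication genes, many of them expressed in S phase, were read beside these because mismatch repair acts behind the replication fork. Of 21 such genes, 4 were higher, 1 lower and 16 not called with SM08502 over the lines, and 6 were higher, 2 lower and 13 not called with the combination. These counts lie below the shares of all genes called, 38.5% and 49.1%. GINS1 and GINS3, parts of the replicative helicase, rose by 0.30 and 0.29 with SM08502 (adjusted p = 2.42e-04 and 0.00357), and TK1 rose by 0.29 (adjusted p = 3.57e-04). RRM2, a subunit of ribonucleotide reductase, fell by 0.51 (adjusted p = 1.75e-05). With the combination GINS3 rose by 0.51, GINS1 by 0.35 and CCNE2 by 0.32, and RRM2 fell by 0.53 and MCM3 by 0.30, with adjusted p from 7.38e-06 to 0.00510. On vehicle, 12 of the 21 were higher in HEC265 than in Ishikawa and 3 were lower, a count near the 63.3% of all genes called there, with a list median of 0.46 against -0.17 for all genes. MSH6 was also highest in HEC265 and MSH3 was not. The part of replication activity in the members' levels was not tested.

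The members differed from each other in how their 16 group means ran. Pearson's r was 0.93 for MSH3 and MLH3, both highest in Ishikawa, and 0.60 with each line's own mean removed. It was -0.71 for MSH6 and MSH3, but 0.41 with each line's own mean removed. For PMS2 and each other member it was between -0.42 and -0.17, and between -0.49 and -0.18 with line means removed. Outside the 5, the genes whose group means were most like a member's were ATP5G3, NAA15 and RUVBL1 for MSH6 (r = 0.99, 0.98 and 0.98), RPL37A, POTEE and RPLP0 for MSH3 (r = 0.99, 0.99 and 0.99), LIN52, GPATCH11 and VIMP for MLH3 (r = 0.98, 0.98 and 0.97), FGGY, BOD1 and TBCE for PMS1 (r = 0.96, 0.96 and 0.95), and PCGF3, RFX2 and MTX3 for PMS2 (r = 0.73, 0.73 and 0.69). RPL37A and RPLP0 belong to the ribosomal genes of the length score. With line means removed they were ZRANB2, ZNF160 and PUS3 for MSH3 (r = 0.98, 0.96 and 0.96), RPS13 and DNAH10 for MLH3 (r = 0.97 and 0.97), POLA1, DHPS and PDE8A for PMS1 (r = 0.95, 0.95 and 0.93), SURF4, PLEKHJ1 and CNPY2 for MSH6 (r = 0.89, 0.89 and 0.88), and FOXP1, FAM168A and SHROOM3 for PMS2 (r = 0.87, 0.85 and 0.85).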

How the data were processed

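RNA was sequenced from 4 cell lines under 4 treatments, 2 libraries per group and 32 in all. Per the labels' protocols, ribosomal RNA was depleted with FastSelect and libraries were made with a KAPA mRNA HyperPrep kit for a NovaSeq instrument. The submitters' processing notes name bcl2fastq, STAR, kallisto and the build GRCh38. Their versions and roles, the gene annotation and the strandedness setting are not given in the sources used here. The authors deposited log10(CPM + 1) per gene, on which 100% of values came out as whole reads (within 0.01 of a read), and no column was left unused. Genes listed at 0 in every library number 4366.

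The deposited scale was undone to CPM, and log2(CPM + 1) was tested, which understates the change of low genes. Genes with CPM above 1 in at least 2 libraries were kept. All 32 libraries entered one linear model with an intensity trend and 1 mean per group (limma 3.58.1 under R 4.3.3). Residual degrees of freedom were 16, and prior degrees of freedom 4.90. Tests were two-sided, p values were adjusted over 17011 genes in each of 44 contrasts and 3 F tests, and calls were made at adjusted p under 0.05. Intervals are 95% intervals of this fit. Replicates of each of the 16 groups differed by more than counting error (chi-square per degree of freedom of 2.39 to 97.7), so each library counts as 1. The fit was tested on simulated data with a single dispersion for all genes. Changes of 1.25-fold were called for 10.2% of the changed genes in the SM08502 mean over lines and 0% in HEC265. Those of 1.5-fold were called for 67.3% and 6.12%, and those of 2-fold for 89.6% and 54.2%. Changes of such size could thus go uncalled in a single line of the simulation. It held only 48 or 49 changed genes per fold among 16722 tested. In the data, 6546 genes were called for the SM08502 mean and 2494 for SM08502 in HEC265. The adjustment is therefore stricter in the simulation, and its rates do not carry over to the members. Positions and sequences come from RefSeq GRCh38.p14 (Python 3.11.15), and all 5 members matched.

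The members and lists were chosen with earlier results of these data known. Named outside the members were 5 neighbours or copies, the 3 largest called rises and falls of the partner and replication lists for SM08502 and the combination, and the 3 genes most like each member among those with a mean log2(CPM + 1) of at least 3. Alternatives were no filter, a stricter filter (mean log2 of at least 2), a pseudocount of 0.1, median re-centring, quantile normalization, no trend, the compared lines alone, a replicate block, the length score as a covariate, limma voom on recovered reads, CPM re-scaled by the median of ratios, and each library left out. Leaving out both shallow libraries, and the F test of the combination effect, were chosen after seeing the data. Some items that these rules name are not reported here. On recovered reads, limma voom called 6893 genes for SM08502 and 8165 for the combination over the lines, against 6546 and 8355.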

Additional observations from a re-analysis of the deposited data

Results flagged for a closer look

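The effect of the combination on MLH3 differed between the cell lines. The test was added after the SM08502 values had been seen, and it called 27.1% of all genes. For SM08502 alone the F test did not call MLH3 (adjusted p = 0.147). Combination replicate 2 of SNGM is a shallow library, at 1.61 M reads. The F test over the 4 lines had an adjusted p of 0.00614 in limma, and between 9.92e-04 and 0.0213 over 26 alternatives. The effect was 0.82 in Ishikawa and -0.02 in SNGM. The difference of -0.85 had an adjusted p of 0.00511, where 7.71% of genes are called. It was called under all 18 alternatives run for it. The difference between SNGM and Ishikawa-S33Y, of -0.48, had an adjusted p of 0.0471 (22.5% of genes called) and was called under 6 of 18 alternatives. SNGM received the highest SM08502 dose of the lines, 350.7 nM, and Ishikawa the lowest, 80 nM, so dose and line cannot be told apart.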

How the results depend on the processing

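Of 190 differences of a member, 37 were called. Over the alternatives other than leaving out a library, these gave 374 values, of which 339 kept their direction and call, 34 lost the call and 1 turned. With a library left out, 194 of 240 kept the call. Of the 2656 values of uncalled differences, 44 became called and 161 changed sign without a call.

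The length score as a covariate turned the SNGM difference from Ishikawa on vehicle to -0.0275 for MSH6 (adjusted p = 0.921) and to -0.77 for PMS2 (4.62e-04), and that of PMS2 between SNGM and Ishikawa-S33Y to -0.28 (0.0255). That of PMS1 between SNGM and Ishikawa, not called either way, turned to 0.45 (0.105). It changed the number of members called from 1 to 2 for SM08502 in HEC265 and Ishikawa-S33Y and for the combination in HEC265 and Ishikawa-S33Y, and from 0 to 2 for SM08502 in SNGM. Median re-centring gave 1 of 3 members for the SM08502 mean, 0 for SM08502 in HEC265 and Ishikawa-S33Y, and 0 for the combination in HEC265. Quantile normalization gave 1 for the SM08502 mean and 0 for both treatments in HEC265. Voom gave 2 for both treatments in HEC265 and 1 for SM08502 in SNGM. The stricter filter gave 2 for SM08502 in HEC265. With the compared line alone, counts were 4 for SM08502 and 5 for the combination in HEC265, and 0 for both in Ishikawa. Without both shallow libraries the combination in HEC265 gave 2. The number of all genes called also changed with the setting. For SM08502 in HEC265 it was 2494 of 17011 in the main fit, 2219 after re-centring and 2117 after quantile normalization. The shares of all genes under the other settings are not given here, so those counts of members cannot be set against a background. The cause of these changes was not tested.

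With 1 library left out, counts ranged from 0 to 0 for SM08502 in HEC265, from 0 to 1 in Ishikawa-S33Y and from 1 to 2 in Ishikawa. They ranged from 0 to 1 for the combination in HEC265 and in Ishikawa-S33Y, from 2 to 3 for both means over lines, and from 0 to 2 for the SM08502 effect between lines, where 2 came without Ishikawa SM08502 replicate 1. Re-centring moved the median of all genes by 0.21 for HEC265 against Ishikawa on vehicle and by -0.11 for the combination in HEC265.

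Replicate numbers were checked for pairing by correlating same-numbered deviations in the 6 pairs of treatments. The correlations ran from -0.48 to 0.83 in Ishikawa, -0.06 to 0.09 in Ishikawa-S33Y, -0.57 to 0.70 in SNGM and -0.08 to 0.21 in HEC265. With both signs in each line, the check does not settle whether the numbers pair the libraries. With a replicate block all 20 counts of members called and all 37 calls were as without it. CPM re-scaled by the median of ratios moved the 80 group levels by a factor of 0.907 to 1.08.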
